A study of Musca domestica with 4 samples.

Results

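The 100 genes with the highest transcript levels in adult female house flies were examined, out of 6159 predicted genes. They were chosen by level alone. Each count was divided by the coding length of its gene and scaled so that every library sums to 1000000 (TPM, transcript units per 1000000). The 2 ALHF libraries were averaged, the mean over the 3 strains was taken, and the 100 highest genes were kept after 5 genes had been set aside by the rule, of which 2 would otherwise have ranked 51 and 64. These levels chose the members and are given here as a description. The strains were ALHF, a multi-insecticide resistant strain from an Alabama poultry farm that was selected with permethrin (libraries ALHF 1 and ALHF 2, from different flies extracted on different days), aabys, an insecticide-susceptible strain that carries a recessive visible marker on each autosome (1 library), and CS, a wild type susceptible laboratory strain (1 library). Every library came from a pool of 20 whole females 3 days old, so 1 library is 1 pool and not 1 fly. The gene set was predicted from contigs assembled from ALHF reads alone.

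The most abundant mRNAs of an animal usually encode the parts of large or constantly renewed machines. Ribosomal proteins and elongation factors carry out protein synthesis, ATP synthase and cytochrome c oxidase make ATP in mitochondria, and actin, tropomyosin, troponin and myosin light chains form the contractile filaments of muscle, which fill much of the thorax of a fly. Trypsin, amylase and lysozyme are made by the gut of flies. In RNA from whole flies, fewer cells of a type and less RNA per cell cannot be told apart.

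The 100 members held 36.9% of all TPM in ALHF 1, 40.5% in ALHF 2, 41.4% in aabys and 37.7% in CS. The ALHF mean was 38.7% ± 2.54 (SD, n = 2), CS lay within 1 SD of it and aabys just beyond, so the total differed little while its make-up differed by function. The annotation used here covered only part of the genes: a sheet of 1689 of the 6159 genes, and lists of genes that the study had called higher or lower in ALHF. Group sizes are therefore the members found in it and not complete counts. Ribosomal proteins were the largest group so found, with 23 members, and they held 6.14% and 7.55% of TPM in ALHF against 10.4% in aabys and 11.6% in CS. The 7 genes of mitochondrial ATP production held 5.26% and 4.21% in ALHF, 1.74% in aabys and 1.17% in CS. The 5 muscle contractile genes held 3.95% and 3.71% in ALHF, 0.385% in aabys and 0.128% in CS. The 46 members with no annotation in these sources, of which 43 were in neither, held 12.4% and 14.4% in ALHF and 19.3% in each susceptible strain.

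**Figure D1:**
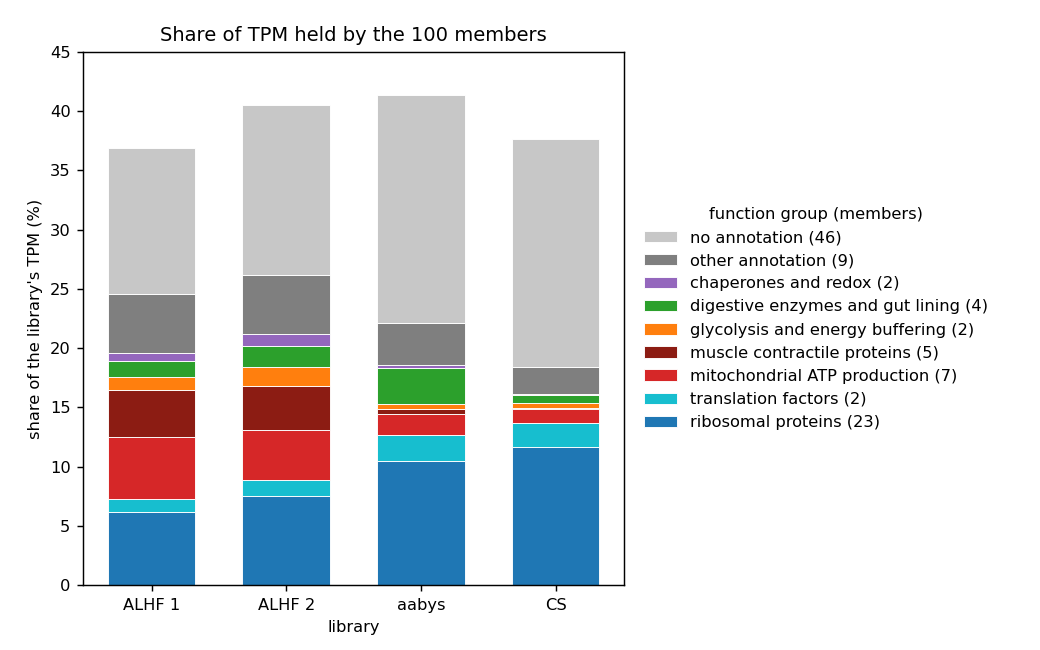
Share of each library's TPM (%) held by the 100 members, stacked by function group, with the number of members of each group in the key; each bar is 1 library. The bars reach 36.9% to 41.4%, and the muscle and mitochondrial blocks (dark and light red) are thick in the 2 ALHF bars and thin in aabys and CS, where the ribosomal block reaches 10.4% and 11.6%.

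Members were short genes. Their median coding length was 632 nt (range 336 to 3012) against 1305 nt over all genes, and 89 of 100 were shorter than that median. TPM divides by length, so a short gene needs fewer reads to reach a given TPM. Of the 54 members with an annotation, 38 were named in the annotation sheet and the others in the lists of changed genes. A member of the second kind was picked for its difference between these libraries, and its direction is not independent evidence. All 23 ribosomal proteins, both translation factors and all 4 digestive genes came from the sheet, as did 3 of 5 muscle genes, 2 of 7 mitochondrial genes, 1 of 2 glycolytic or energy-buffering genes and 1 of 2 chaperone or redox genes. None of the 54 was annotated as a yolk, eggshell, cuticle, secreted carrier or vision gene, and the other 46 may hold such genes. A pair of unannotated members, ALHF_10052.g5782 and ALHF_10602.g5944, had the same value in every library and cannot be told apart here.

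The order of the members differed by strain. Ef1alpha48D (ALHF_01761.g987), the elongation factor that brings amino-acyl tRNA to the ribosome, had the highest mean level, at 9073 and 10846 TPM in ALHF 1 and 2, 19682 in aabys and 17308 in CS. It was the first gene in aabys and in CS, whereas an EF-hand gene, ALHF_05225.g3577, was the first in both ALHF libraries, at 24137 and 24870 TPM, and ranked 87 in aabys (2214 TPM) and 154 in CS (800.1 TPM). A mitochondrial carrier, ALHF_05065.g3452, ranked second in both ALHF libraries, 17 in aabys and 41 in CS. Taking each library by itself, the 100 highest genes included 71 members in ALHF 1, 76 in ALHF 2, 88 in aabys and 80 in CS, and 47 members were among the 100 highest in all 4 libraries. Those 4 lists named 160 genes in all. The lists of ALHF 1 and ALHF 2 shared 85 genes and those of aabys and CS shared 84, while an ALHF list shared 53 to 65 genes with a susceptible one.

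Across the members, Pearson's correlation of log2(TPM + 1) was 0.86 between ALHF 1 and ALHF 2 and 0.78 between aabys and CS, and it ran from -0.31 to -0.25 between an ALHF and a susceptible library. These are descriptions across 100 genes, which are not replicates, and choosing genes by their mean over strains favours pairs of values that offset each other. The median difference between the ALHF libraries was 0.30 on the log2 scale without regard to sign, 7 members differed by over 2-fold, and 77 of 100 were higher in ALHF 2. The largest such gap was in ALHF_04600.g3072, which has no annotation, at 173 and 1690.1 TPM.

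**Figure D2:**
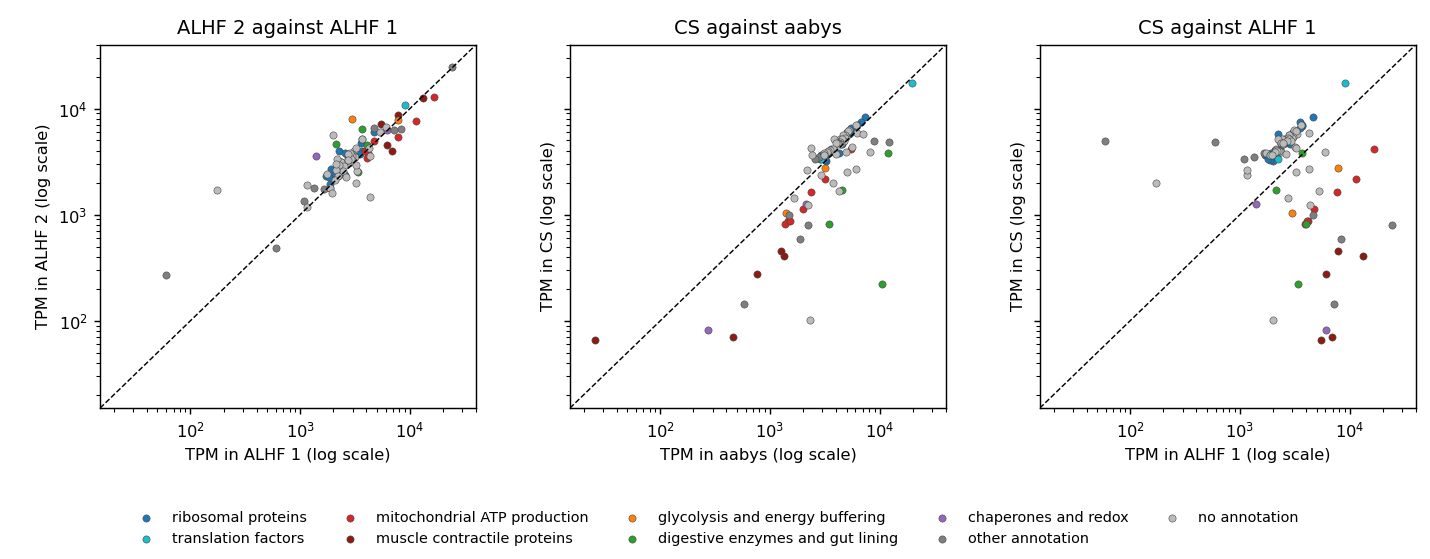
TPM of the 100 members in 3 pairs of libraries (both axes on a log scale; each point is 1 member, coloured by function group; the dashed line marks equal TPM). Points stay near the line for the ALHF pair, muscle and mitochondrial genes other than the actin ALHF_04131.g2677 fall below it in CS against aabys, and in CS against ALHF 1 the same groups lie far below the line while ribosomal and most unannotated members lie above it.

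Strains were then compared with edgeR's quasi-likelihood test on TMM-normalized counts, with all genes in the fit. The test takes its spread from the ALHF pair alone, with 1 residual degree of freedom. It called none of the 100 members in any of the 3 comparisons at an adjusted p under 0.05, nor any other gene (0% of 6070 genes tested). The lowest adjusted p of a member was 0.107 for ALHF against aabys, 0.0629 for ALHF against CS and 0.301 for aabys against CS. At an unadjusted p under 0.05, 24 members differed between ALHF and aabys, 21 higher and 3 lower in ALHF, where 17.5% of all genes did (11.3% higher and 6.19% lower). Against CS, 28 members did, 26 higher and 2 lower, where 42.1% of all genes did (24.3% higher and 17.9% lower). Between aabys and CS the number was 15, all higher in aabys, with 9.36% over all genes (7.81% higher and 1.55% lower). At an adjusted p under 0.1 the test called 28 members against CS, with a background of 35.2%, and 0 in the other comparisons. DESeq2 called 21 members against aabys, 19 higher and 2 lower in ALHF, with 10.2% of all genes called (8.09% higher and 2.11% lower). It called 30 against CS, 28 higher and 2 lower, with 33.1% of all genes called (22.1% and 11%). Between aabys and CS it called 7, all higher in aabys, with 3.2% of all genes called (2.6% and 0.593%). limma called 0 members in each comparison. So the calls depended on the tool. A mean over strains also admits genes that are high in ALHF alone, such as the actin ALHF_04131.g2677, which ranked 16 and 9 in ALHF 1 and 2 but 4288 in aabys and 2827 in CS, so the backgrounds stand beside the members' counts and nothing is read from the difference. Pooling aabys and CS into 1 group treats 2 different strains as replicates, so the spread then also holds the difference between them. With this pooling the quasi-likelihood test called 3 members, all higher in ALHF, with a background of 0.774%, a count that the same choice by mean level bears on. They were an actin (ALHF_04131.g2677), a glutathione S-transferase (ALHF_03123.g1902) and the EF-hand gene ALHF_05225.g3577, with adjusted p of 0.0117, 0.0407 and 0.0409. When the filter on low counts was set on those 2 groups, which was tried after seeing the data and leaves 6027 genes in place of 6070, it called 9 members with a background of 1.51%.

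In TMM-normalized counts, 25 members had both ALHF values above those of aabys and CS, and 34 had both below, against 34% and 35% of all genes. In TPM the same counts were 23 and 68, against 24.5% and 47.3%. The scales differ because TMM shifts all genes together: the median log2 ratio of all genes was -0.02 for ALHF against aabys and 0.10 against CS with TMM, and -0.42 and -0.55 as a ratio of TPM. For the 100 members the medians were -0.19 and -0.08 with TMM and -0.57 and -0.69 in TPM. Without ALHF 1 the TMM medians of the members became -0.02 and 0.10, so a direction for the members as a whole rested on that library. For aabys against CS the median of the members was 0.12 with TMM and -0.11 in TPM, a direction that turned with the scale. A ratio of 2 groups of genes inside 1 library does not depend on the scale, and such ratios are given for the groups that follow.

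The highest of the 23 ribosomal proteins was RpL7A (ALHF_00329.g166), a protein of the large subunit, at 4671 and 5957 TPM in ALHF 1 and 2, 7384 in aabys and 8373 in CS. RpL10 (ALHF_02503.g1459), also of the large subunit, was at 3549 and 4686, 6736 and 7491 TPM. For all 23 genes both ALHF libraries were below both susceptible libraries in TPM, where 47.3% of all genes were. In TPM 21 of 23 were higher in CS than in aabys, and over all genes the median log2 ratio of aabys to CS was -0.23. With TMM 16 of 23 were higher in aabys, as were 3004 of all 6070 genes tested. The lowest-to-highest spread over the 4 libraries had a median of 0.91 log2 units (range 0.69 to 1.37). With TMM the median log2 ratio was -0.21 against aabys and -0.15 against CS. Only 11 of 23 then had both ALHF libraries below both susceptible ones, where 35% of all genes did. None passed an unadjusted p of 0.05 by the quasi-likelihood test in any comparison. In TPM those medians were -0.60 and -0.76, near the -0.42 and -0.55 of all genes. The ALHF pair itself was not level, as 22 of 23 ribosomal proteins were higher in ALHF 2 than in ALHF 1.

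Both translation factors were lower in the 2 ALHF libraries than in aabys and CS in TPM, where 47.3% of all genes were. With TMM only Ef1alpha48D kept that order, which 35% of all genes had. Besides Ef1alpha48D, the other member was eIF-4a (ALHF_00481.g261), the helicase that unwinds mRNA leaders before initiation, at 2205 and 2608 TPM in ALHF, 2914 in aabys and 3333 in CS. The summed level of both genes was 0.184 and 0.178 of the ribosomal sum in ALHF 1 and 2, 0.216 in aabys and 0.178 in CS. Against CS the ALHF mean was 1.02 times as high, and against aabys it was 0.835 times. A further member, ALHF_03541.g2201, was named only by the eEF1-gamma superfamily, and stood at 1661 and 1745 TPM in ALHF against 3416 and 3802 in aabys and CS.

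Genes of mitochondrial ATP production were higher in both ALHF libraries than in either susceptible library, in all 7 cases and on both scales. Of all genes, 24.5% had that order in TPM and 34% with TMM. ATPsyn-beta (ALHF_01778.g998), the catalytic subunit of ATP synthase, was at 11428 and 7603 TPM in ALHF 1 and 2, 3187 in aabys and 2186 in CS. A second gene of the ATP synthase alpha/beta family, ALHF_04852.g3286, was at 7717 and 5384, 2337 and 1634 TPM. ATPsyn-d (ALHF_00408.g213), of the stalk that holds the parts of the enzyme together, was at 4051 and 3419, 1529 and 871.8 TPM. Cytochrome c oxidase, which passes electrons to oxygen, was represented by subunits IV (ALHF_05205.g3562), Va (ALHF_05256.g3601) and Vb (ALHF_05083.g3465), and subunit IV was at 4721 and 4984, 1995 and 1139 TPM. The mitochondrial carrier ALHF_05065.g3452, of a family that moves nucleotides and metabolites over the inner membrane, reached 16549 and 12886 TPM in ALHF, 5489 in aabys and 4130 in CS. It had the highest level of the 7. Its annotation names only the family, so its place among genes of ATP production is by that name alone.

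The mitochondrial genes differed between strains by similar amounts. Their log2 ratios with TMM ran from 1.67 to 1.96 against aabys (median 1.85) and from 2.44 to 2.89 against CS (median 2.71), and the order was ALHF, then aabys, then CS for each of the 7. All 7 had an unadjusted p under 0.05 in both comparisons by the quasi-likelihood test (adjusted p 0.209 to 0.216 against aabys and 0.0629 against CS), and DESeq2 called all 7 in both. Of all genes, 11.3% and 24.3% were higher in ALHF than in aabys and CS at that unadjusted p. DESeq2 called 8.09% and 22.1% of all genes higher. Relative to the ribosomal sum of the same library, the mitochondrial sum was 0.856 and 0.558 in ALHF 1 and 2, 0.166 in aabys and 0.1003 in CS. The ALHF mean was 4.25 times the aabys value and 7.05 times the CS value. The 5 genes known only from the lists of changed genes count here. They were annotated because the study had called them changed in these libraries, so their calls are not independent. Of the 2 from the annotation sheet both had the same order. ATPsyn-d, from the sheet, ranked 27 and 54 in ALHF 1 and 2 but 111 in aabys and 142 in CS. Cytochrome c oxidase subunits Va and Vb ranked 115 and 122 in aabys and 141 and 151 in CS. The choice by mean level favoured higher ALHF values in such genes. The calls and ratios of the group are a description only.

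Muscle genes had the largest median ratios of the function groups. Mlc1 (ALHF_00522.g289), a myosin light chain, was at 13228 and 12663 TPM in ALHF 1 and 2, 1332 in aabys and 408 in CS. Tm1 (ALHF_02519.g1469), a tropomyosin that covers the myosin sites of the thin filament, was at 7778 and 8678, 1270.2 and 458 TPM. The troponin wupA (ALHF_01626.g904), the inhibitory subunit of the calcium switch, was at 6126 and 4571, 762.9 and 276.1 TPM. Each of these 3 genes came from the annotation sheet, and in each the lowest ALHF library was several times above aabys, which in turn was above CS.

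The other muscle members were the actins ALHF_04131.g2677, at 5466 and 7228 TPM in ALHF 1 and 2, 25.1 in aabys and 65.4 in CS, and ALHF_05088.g3469, at 6864 and 4006, 455.2 and 70.4 TPM. Actin genes are near-identical in sequence, so the counting may have split reads among them differently in each strain, and their single values are uncertain. ALHF_04131.g2677 was also the only muscle member that was lower in aabys than in CS. Over the 5 genes the median log2 ratio with TMM was 3.67 against aabys (range 3.08 to 8.37) and 5.60 against CS (range 4.78 to 7.21). All 5 had an unadjusted p under 0.05 in both comparisons by the quasi-likelihood test (adjusted p 0.107 to 0.169 against aabys and 0.0629 against CS). At that unadjusted p, 11.3% of all genes were higher in ALHF than in aabys, and 24.3% higher than in CS. The 5 genes ranked from 124 to 4288 in aabys and from 283 to 2827 in CS. They entered the set through their ALHF levels, so the choice favoured higher values in ALHF. Their calls and ratios are a description only. The muscle sum was 0.642 and 0.492 of the ribosomal sum in ALHF 1 and 2, 0.0368 in aabys and 0.0110 in CS, so the ALHF mean was 15.4 times the aabys value and 51.6 times the CS value. Between the susceptible strains the ratio was 3.35 times higher in aabys.

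Outside the fixed lists, 4 members with another annotation and 3 with none had the order ALHF, aabys, CS in TPM. Of the annotated ones, 3 are described here and ALHF_02263.g1315 further below. These 3 were chosen after their values were seen, and ALHF_05225.g3577 and ALHF_04639.g3103 were annotated only through the lists of changed genes. The EF-hand is a calcium-binding loop. ALHF_05225.g3577, the EF-hand gene that led both ALHF libraries, had a log2 ratio of 3.86 (SE 0.344) against aabys and 5.55 (SE 0.379) against CS with TMM. Scp1 (ALHF_02226.g1282), a calcium-binding protein of the sarcoplasm, was at 7136 and 6228 TPM in ALHF 1 and 2, 577.8 in aabys and 142.6 in CS, with log2 ratios of 3.92 (SE 0.455) and 6.16 (SE 0.516). An E1-E2 ATPase gene, ALHF_04639.g3103, of the family of membrane pumps that move cations, was at 8324 and 6349, 1869 and 583.7 TPM. It had the most reads of these 3, with 200678 counts in ALHF 1, as its coding region is the longest of all members at 3012 nt. Scp1 ranked 10 and 15 in ALHF 1 and 2 but 260 in aabys and 1277 in CS, so it entered through its ALHF levels. ALHF_04639.g3103 ranked 94 in aabys and 211 in CS, and ALHF_05225.g3577 ranked 87 and 154. The choice favoured higher values in ALHF, and the ratios of these 3 are a description only.

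**Figure D3:**
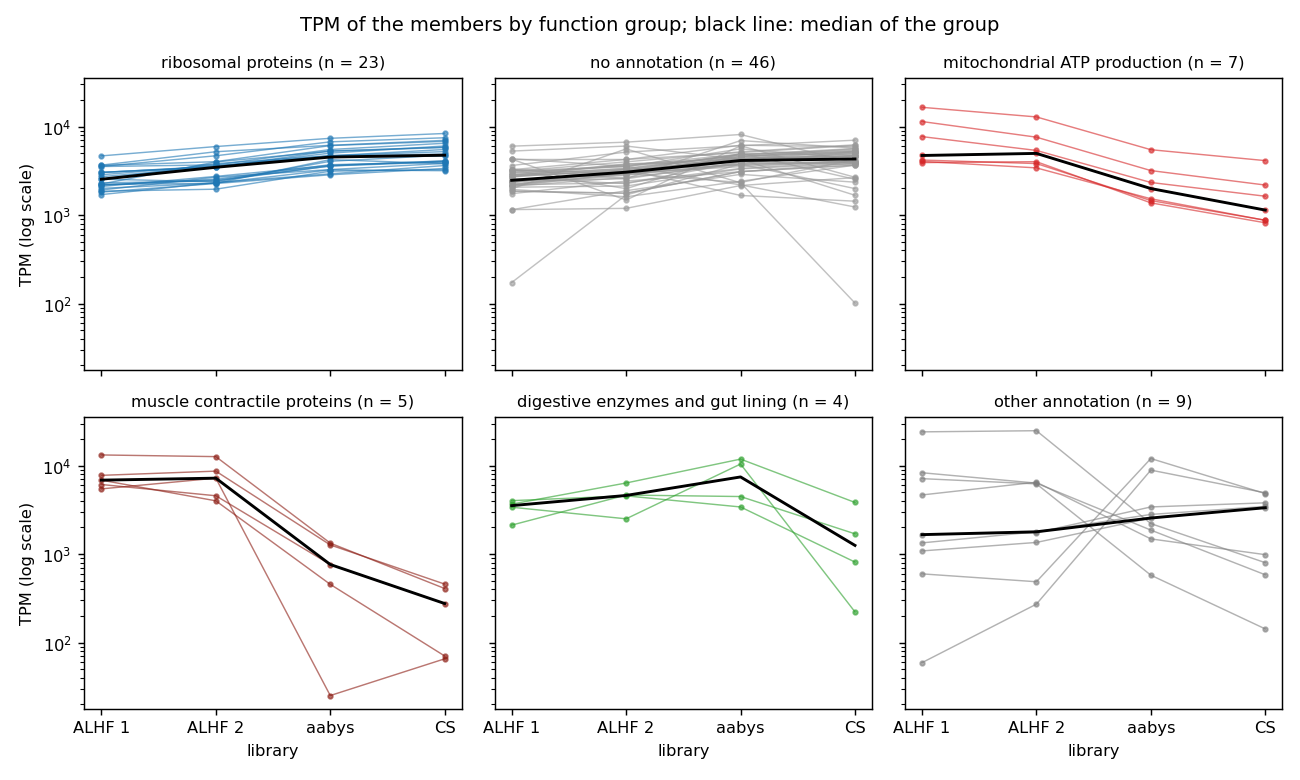
TPM (log scale) of each member in the 4 libraries, in 6 panels by function group; thin lines join the values of 1 member, and the black line is the group's median. Ribosomal and most unannotated members run slightly upward from ALHF to CS, mitochondrial members fall by a like amount, muscle members fall furthest, and the digestive panel peaks in aabys.

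Members that supply or buffer energy in the cytoplasm followed the mitochondrial order. Glyceraldehyde-3-phosphate dehydrogenase (ALHF_05242.g3592), a step of glycolysis, was at 7765 and 7761 TPM in ALHF 1 and 2, 3142 in aabys and 2729 in CS. Argk (ALHF_02200.g1264), the arginine kinase that stores phosphate bonds in insect muscle, was at 2996 and 7894, 1387 and 1039 TPM. Its ALHF libraries differed by more than 2-fold from each other, so the size of its ratio is uncertain, although both lay above the susceptible ones. Argk ranked 61 and 6 in ALHF 1 and 2, 120 in aabys and 127 in CS, so the choice favoured higher ALHF values. The sum of both genes was 4.41 times as high in ALHF as in aabys and 5.90 times as high as in CS, relative to the ribosomal sum.

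Digestive genes followed another order, with CS lowest in most of them. LysP (ALHF_02362.g1373), a lysozyme, which in flies of this kind digests bacteria in the gut, was at 3390 and 2507 TPM in ALHF 1 and 2, 10442 in aabys and 222 in CS. It had the largest difference between aabys and CS of any member, with a log2 ratio of 5.78 (SE 0.583) and an adjusted p of 0.301 by the quasi-likelihood test. LysP ranked 4 in aabys but 734 in CS, so its CS level did not bring it into the set. The trypsin alphaTry (ALHF_02019.g1145), a digestive protease, was at 3678 and 6374, 11872 and 3840 TPM, so CS lay between the 2 ALHF libraries. A second trypsin, CG7542 (ALHF_02287.g1327), was at 2128 and 4656, 4479 and 1696 TPM, and aabys lay between the ALHF libraries. Amylase (ALHF_00499.g273), which splits starch, was at 4023 and 4559, 3413 and 812.7 TPM, and was the only digestive member with both ALHF libraries above both susceptible ones. The digestive sum over the ribosomal sum was 0.215 and 0.240 in ALHF 1 and 2, 0.289 in aabys and 0.0565 in CS. CS was thus the lowest relative to the ribosomal sum, with aabys 5.12 times and the ALHF mean 4.02 times as high. As a share of TPM, the digestive sum was 1.32% and 1.81% in ALHF 1 and 2, 3.02% in aabys and 0.657% in CS. On that measure aabys also lay apart from both ALHF libraries.

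Among the redox and metabolic members, a glutathione S-transferase (ALHF_03123.g1902), of the family that joins glutathione to foreign or reactive compounds, was at 6133 and 6278 TPM in ALHF 1 and 2, 273.7 in aabys and 81.6 in CS. The ALHF libraries differed little from each other, and the log2 ratio with TMM was 4.89 (SE 0.4495) against aabys and 6.86 (SE 0.499) against CS, with adjusted p of 0.107 and 0.0629 by the quasi-likelihood test. The gene ranked 13 and 14 in ALHF 1 and 2 but 525 in aabys and 2345 in CS, so it entered the set through its ALHF levels. It was annotated only through the lists of changed genes. Its ratios and p-values are a description only. Fer2LCH (ALHF_00470.g251), a ferritin subunit that stores iron, was at 1400.5 and 3544 TPM in ALHF, 2134 in aabys and 1273 in CS, and the ALHF libraries lay on either side of aabys. ALHF_02263.g1315, with a mannitol dehydrogenase domain, was at 4668 and 6506, 1486 and 985.8 TPM. It ranked 21 and 11 in ALHF, 113 in aabys and 131 in CS, so the choice favoured higher ALHF values.

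A pair of alpha/beta-hydrolase genes went the other way. ALHF_04154.g2697 was at 598 and 487 TPM in ALHF 1 and 2, 12048 in aabys and 4832 in CS. ALHF_04779.g3223 was at 59.2 and 271.9, 8913 and 4936 TPM, and ranked 1722 and 490 in ALHF 1 and 2 against 5 in aabys and 27 in CS. Both were far above the ALHF libraries in each susceptible strain, with log2 ratios of -4.09 (SE 0.334) and -5.36 (SE 0.986) for ALHF against aabys and -2.54 (SE 0.324) and -4.28 (SE 0.951) against CS. Without ALHF 1 or ALHF 2, the ratio of ALHF_04779.g3223 became -4.64 or -6.85 against aabys and -3.56 or -5.78 against CS, so its size is uncertain. The pair were the only members that DESeq2 called lower in ALHF, 2 against each strain. ALHF_04154.g2697 ranked 285 and 321 in ALHF 1 and 2 against 2 in aabys and 30 in CS. Both genes entered the set through their levels in aabys and CS, so the choice favoured lower values in ALHF. Their ratios and calls are a description only. The alpha/beta-hydrolase fold is shared by lipases, esterases and the yolk proteins of higher flies, and the annotation, which names only the superfamily and comes from the lists of changed genes, does not say which these are.

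**Figure D4:**
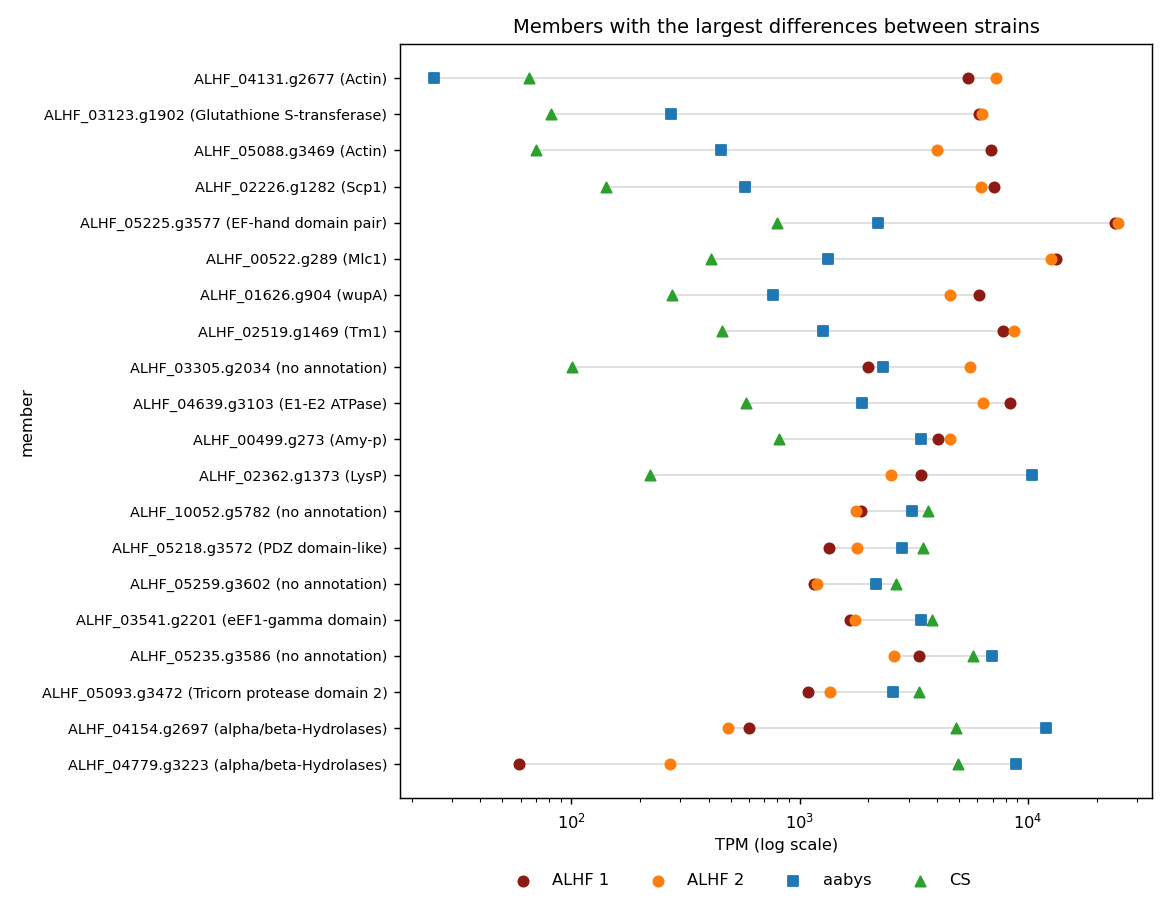
TPM (log scale) in each library for 20 members; circles are the 2 ALHF libraries, squares aabys and triangles CS, and grey lines span the range. Among members whose ALHF libraries lay on 1 side, the 8 highest and 8 lowest ratios to the susceptible strains are shown. The 8 largest differences between aabys and CS are added, with some overlap. The lowest ratios include small differences, such as -0.38 (log2, against aabys) for ALHF_10052.g5782. Some members with larger positive ratios, such as ATPsyn-beta, are not shown. From the actin ALHF_04131.g2677 at the top (25.1 TPM in aabys) to the hydrolase ALHF_04779.g3223 at the bottom (59.2 TPM in ALHF 1), the ALHF circles move from the right of the susceptible symbols to their left.

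Of the 46 members with no annotation, 38 had both ALHF libraries below both susceptible libraries in TPM, where 47.3% of all genes did, and 17 did with TMM, near the 35% of all genes. Their median spread over the 4 libraries was 0.97 log2 units, near the 0.91 of the ribosomal proteins. When each gene's log2 values were centred on its own mean, 34 of these 46 lay as close to the mean ribosomal pattern as the farthest ribosomal protein did (a distance of 0.429). This describes a likeness over 4 libraries and names no function. Genes beyond the sheet were annotated only if the study had called them changed, so members with large differences were less likely to be left among these 46, and no comparison with annotated members is drawn.

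The highest unannotated member was ALHF_03940.g2524, at 6019 and 6679 TPM in ALHF 1 and 2, 8155 in aabys and 3887 in CS. ALHF_03305.g2034 was at 1985 and 5598, 2321 and 101 TPM, so that it was low in CS alone, and its log2 ratio of aabys to CS was 4.74 (SE 0.991). ALHF_05188.g3548 was at 4296 and 1479, 6081 and 2677 TPM, and its ALHF libraries lay on either side of CS. The steadiest member of all was ALHF_05164.g3525, at 4252 and 4253, 6163 and 5935 TPM, a spread of 0.54 log2 units. Among the 8 steadiest members were also eIF-4a, RpS2 (ALHF_00284.g138), RpS9 (ALHF_00375.g193) and RpL22 (ALHF_01767.g991).

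The same lists were looked up among sheet genes that are not members. The 5 genes set aside by the rule were not excluded from this look-up. Of 18 other genes of mitochondrial ATP production, 12 had both ALHF libraries above both susceptible libraries with TMM and 3 below, and the median log2 ratio was 1.56 against aabys. Of 21 other muscle genes, 14 lay above and 6 below, with a median of 2.28. Of 22 other translation factors 3 lay above and 14 below, and of 7 other ribosomal proteins 0 and 4. The glycolysis and chaperone lists did not repeat the values of their members. Of 9 other glycolytic or energy-buffering genes 3 lay above and 1 below, with medians of 0.32 against aabys and 0.37 against CS, where the 2 members had 2.03 and 2.56. Of 36 other chaperone or redox genes 10 lay above and 19 below, with medians of -0.49 and -0.89, where the 2 members had 2.75 and 4.22. Of 62 other digestive genes 24 lay above and 9 below, beside the 34% and 35% of all genes.

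The limit of the set fell in a dense part of the ranking. Member 100, Fer2LCH, had a mean of 1959.7 TPM and the next gene, Df31 (ALHF_01403.g768), 1871 TPM. Just inside were ATPsyn-d, the unannotated ALHF_05262.g3606 and ALHF_05259.g3602, and the actin ALHF_05088.g3469, and just outside were Hsp83 (ALHF_02986.g1799), a chaperone, an EF-hand gene (ALHF_05203.g3561), an enolase (ALHF_05078.g3461) and a pyruvate kinase (ALHF_05097.g3475). Hsp83 stood at 551.5 and 516.1 TPM in ALHF 1 and 2, 1731 in aabys and 3340 in CS.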

How the data were processed

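Poly(A) RNA of 4 pools was sequenced as read pairs. Per the labels and the paper, the authors assembled the ALHF reads, predicted coding regions and estimated expression with RSEM. The deposited column is headed FPKM, but its values are whole numbers that sum to 10112769 (ALHF 1), 5523826 (ALHF 2), 15085758 (aabys) and 12440784 (CS), so they were treated as estimated counts (expected counts) rounded by the authors. This reading was not settled by a source, and taking them as FPKM is among the alternatives.

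TPM was the count over the coding length, scaled per library. Counts were tested with edgeR 4.0.16 in R 4.3.3 (TMM factors 0.816, 0.856, 1.12 and 1.27, filterByExpr, 6070 of 6159 genes kept, glmQLFit, glmQLFTest), with the strain as the group, all 4 libraries in 1 fit and Benjamini-Hochberg adjustment over all genes kept; the common dispersion was 0.196. DESeq2 1.42.0 and limma 3.58.1 were alternatives. The scripts were tested on simulated counts. Genes were joined to the supplementary annotation by identifier, and function lists are word patterns over it. Named genes are the 20 highest members, the 8 with the largest and smallest ratios whose ALHF libraries lay on 1 side, the 8 with the largest aabys to CS ratio, the 8 steadiest, those at the limit and members of a list; others were chosen after their values were seen. The members, lists and comparisons were chosen with earlier results of these data known. Because aabys and CS have 1 library each, p-values of the strain comparisons rest on the ALHF pair. Those with aabys and CS as 1 group treat these strains as replicates.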

Additional observations from a re-analysis of the deposited data

How the results depend on the processing

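No paired analysis was possible because each susceptible strain had a single library, so the groups share fewer than 2 replicate numbers. Members called by the quasi-likelihood test (0 with TMM in each comparison) numbered 5 with DESeq2 size factors and 4 with library size alone for ALHF against aabys, and 26 and 25 against CS; DESeq2 called 21, 30 and 7 in the 3 comparisons, and an adjusted p under 0.1 gave 28 against CS. Called against both strains at once were 5, 4 and 21 members with those 3 settings, and 3 with aabys and CS as 1 group, or 9 with the filter set on the 2 groups. limma and no filter gave 0. Against aabys and CS, the median log2 ratio with library size alone was -0.64 and -0.75 for ribosomal proteins, 1.42 and 2.10 for mitochondrial genes and 3.24 and 4.99 for muscle genes. As a ratio of TPM, chosen after seeing the data, these were -0.60 and -0.76, 1.46 and 2.10, and 3.28 and 4.99, and for aabys against CS -0.16, 0.74 and 1.47. Muscle over ribosomal sums, taken over sheet genes alone (added after seeing the data), gave log2 ratios of 3.61 and 5.32. Without 1 ALHF replicate, the medians against aabys and CS ran from -0.36 to -0.10 and -0.28 to -0.02 (ribosomal), 1.65 to 1.90 and 2.59 to 2.85 (mitochondrial) and 3.53 to 3.69 and 5.57 to 5.62 (muscle). The log2 ratios of muscle over ribosomal sums ran from 3.74 to 4.12 and 5.48 to 5.87, and those of mitochondrial sums from 1.74 to 2.36 and 2.48 to 3.09. The 20 members followed one by one kept the sign of their ratio without either replicate (40 of 40 ratios each). Most of them were chosen because both ALHF libraries lay on 1 side of both susceptible ones. A kept sign was therefore largely fixed by that choice, and nothing is read from it. With library size alone, the aabys to CS ratio of ALHF_03541.g2201 turned to -0.11; the cause was not tested.

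The set itself moved with its rule. Of the 100 members, 69 remained with values taken as FPKM, 95 with an effective length, 95 with a plain mean over libraries, 88 with a median and 94 with a geometric mean over strains, and 97 and 96 without ALHF 1 or ALHF 2. Their share of the total in ALHF, aabys and CS was then 30.1%, 31.4% and 25.1% as FPKM, and 42.4%, 45.3% and 42.0% with the effective length; with the median it was 33.2% in ALHF. A set of 50 held 22.4%, 28.2% and 25.4%, and a set of 200 held 54.3%, 53.4% and 47.0%. Without 1 ALHF replicate the shares ran from 37.7% to 40.5%, 41.2% to 41.5% and 37.6% to 37.8%. The lowest count of a member in any library was 359 (ALHF_04131.g2677 in aabys), and 1 library per susceptible strain shows no spread between pools.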

Other observations

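The 5 genes set aside by the rule held 3.21% and 2.12% of TPM in ALHF 1 and 2, 0.249% in aabys and 0.0974% in CS. With them the share of the most abundant genes was 40.1% and 42.7% in ALHF, 41.6% in aabys and 37.8% in CS.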
